A study of Mus musculus with 2 samples.

Results

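The 10 genes of macrophage lipid handling and liver X receptor (LXR) targets, namely Apoe, Abca1, Abcg1, Nr1h3, Lpl, Pparg, Cd36, Trem2, Msr1 and Mylip, were followed in RNA-seq of splenic Treg cells. They were taken by gene symbol, and all 10 were found among the 20938 genes of the deposited tables. The cells came from the spleen on day 7 after BALB/c islets were placed in streptozotocin-diabetic recipients on a C57BL/6J background, without antibody treatment. There was 1 library of each genotype. The control library came from littermates, which the sample labels call wild type and the methods describe as Mettl14f/f. The other library came from Foxp3-Mettl14f/+ cKO mice, in which a Cre driven by Foxp3 acts on 1 floxed allele of the m6A writer Mettl14; the label of that library reads Foxp3 knockdown, and the genotype of the paper is used here. Treg cells were obtained with magnetic beads, by depletion of non-CD4+ cells followed by selection for CD25, so no gate on a cell sorter was applied. The paper reports that the purity of the isolated cells was checked by flow cytometry and was high in both genotypes. Its values by genotype are not stated to come from the day 7 recipients. In the libraries themselves, 10 granulocyte markers had 239971 reads in the control and 278168 in the cKO library. The 16 T cell core genes had 79195 and 54450. The share of Treg cells among the sequenced cells was not tested. The number of mice behind a library, and their age and sex, are not given in the sources used here.

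LXRα, encoded by Nr1h3, is a nuclear receptor that binds oxysterols and pairs with a retinoid X receptor on DNA. In macrophages, which take up lipoproteins and dying cells, it drives genes that carry cholesterol out of the cell. Macrophages of the splenic red pulp and marginal zone handle large amounts of membrane lipid from engulfed blood cells. T cells also express some of these genes, such as Abcg1, and use them to control their membrane cholesterol.

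LXR and its partner bind a direct repeat of the hexamer AGGTCA with 4 bases of any kind between both copies, and PPARγ and its partner prefer the same repeat with 1 base between. The RefSeq promoter windows of GRCm38.p6, which reach from 250 bases before to 50 bases after a start site, were searched for them on both strands. There were 12 windows for 7 of the 10 genes, and Abcg1, Lpl and Msr1 had none. With at most 2 mismatches over the 12 fixed letters, none of the 7 genes held the LXR repeat, against 3.47% of all 27025 genes with a window. With at most 3 mismatches, 2 of the 7 held it, Abca1 and Pparg, against 24.5% of all genes. The repeat with 1 base between, searched after the data had been seen, was found with at most 2 mismatches in Cd36, against 4.40% of all genes. A match is a description of the letters, and binding was not tested. The 250 bases upstream of Abca1 and of Cd36 are shown because both genes were over 4-fold higher in the cKO library and hold a match wholly upstream of the start site, whereas that of Pparg spans it. They are read 5′ to 3′ on the strand of the gene, which is the minus strand for both, and the capitals mark the copies of the hexamer, which match the hexamer on the opposite strand.
Abca1, chr4:53159896-53160145, minus strand: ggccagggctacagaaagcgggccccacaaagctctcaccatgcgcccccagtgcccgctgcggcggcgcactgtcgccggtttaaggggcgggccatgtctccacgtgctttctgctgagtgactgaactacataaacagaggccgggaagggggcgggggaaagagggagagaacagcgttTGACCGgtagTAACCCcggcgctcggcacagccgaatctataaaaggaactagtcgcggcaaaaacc
Cd36, chr5:17835897-17836146, minus strand: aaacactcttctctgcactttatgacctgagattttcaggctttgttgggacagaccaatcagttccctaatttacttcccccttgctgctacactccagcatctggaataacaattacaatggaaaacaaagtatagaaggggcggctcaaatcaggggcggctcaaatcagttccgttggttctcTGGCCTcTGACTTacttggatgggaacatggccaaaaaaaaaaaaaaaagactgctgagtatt
The match in Abca1 spans positions 53159947 to 53159962 of chromosome 4, has 3 mismatches and begins 67 bases upstream of the start site. The match in Cd36 spans 17835947 to 17835959 of chromosome 5, has 2 mismatches and begins 63 bases upstream.

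Every deposited value was a whole multiple of the value of 1 read, 0.967 in the control and 1.14 in the cKO library, which gave whole reads. These summed to 20239325 and 18327535 reads, and 16187 and 14563 genes were above 0. Levels below are as deposited, and changes are log2 ratios, cKO to control, after 1 was added to each level. With 1 library per genotype no difference has a replicate check, and the 95% intervals (exact Clopper-Pearson, from the reads) cover counting error only, because no molecular identifiers separate PCR copies from molecules. A gene is called higher or lower here from a 1.5-fold difference, a log2 change of 0.58, which is a statement on size and not a test. Mettl14 itself had 948 reads in the control and 652 in the cKO library, a log2 change of -0.31 (-0.45 to -0.16), and Foxp3 had 1547 and 1361 reads, a change of 0.05 (-0.06 to 0.15).

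Most of the lipid handling genes were higher in the cKO library on the deposited scale, with a median log2 change of 1.52. Scaling to macrophage markers takes the marker median from every gene. It turned the median of the 10 genes to -0.64 and that of all genes to -2.22. All 10 genes passed the minimum level, and of these 8 were at least 1.5-fold higher, 1 was lower (Trem2) and 1 was neither (Lpl). By a fold of 2, 6 of the 10 genes were higher and 1 lower, against 10.3% and 18.1% of all genes past the minimum. Of all 16659 genes whose level averaged 1 or more over both libraries, 17.2% were higher and 24.2% lower by the 1.5-fold rule. Over genes above 0 in both libraries alone the shares were 15.8% and 13.7%, so the excess of lower genes rested on genes at 0 in 1 library. The lower and upper ends of the intervals of the 10 genes had medians of 1.21 and 2.04, and the median change over all genes was -0.04. Together the 10 genes took 6999 reads (0.0346%) in the control and 17779 reads (0.0970%) in the cKO library. An exact two-sided binomial test of the reads is a comparison of 2 libraries rather than of genotypes. With an adjusted p under 0.1 and the same 1.5-fold limit, it called the same 8 genes higher and Trem2 lower. Lpl had an adjusted p of 0.00740 in this test and was left out by the fold alone. The fold limit is common to both rules, so their calls are not independent. Over all 14863 genes with at least 10 reads the test with this limit called 14.7% higher and 17.4% lower.

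**Figure D1:**
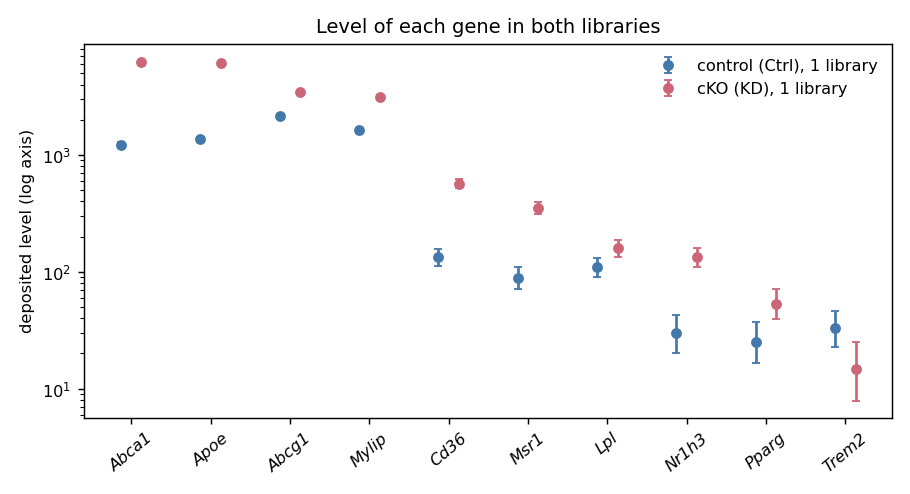
Deposited level (reads divided by the size factor of the library; log axis) of each of the 10 genes in both libraries, 1 for each genotype; bars are 95% exact Poisson intervals of the reads and cover counting error only. Abca1 went from 1218 to 6209 and Apoe from 1362 to 6113, whereas Trem2 was lower in the cKO library, at 32.9 and 14.8.

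Both nuclear receptors among the genes were higher but rare. Nr1h3, which encodes LXRα (chromosome 2 of GRCm38, 91184061 to 91202834, minus strand), had 31 reads in the control and 117 in the cKO library. Its level was 30.0 and 133, a log2 change of 2.11 (1.57 to 2.77). It shares 34 exon bases with Gm13783 on the same strand, so some of its reads could be split between both annotations. Pparg, which encodes the fatty acid receptor PPARγ (chromosome 6, 115360951 to 115490399, plus strand), had 26 and 47 reads. Its level was 25.2 and 53.4, and its log2 change of 1.06 had an interval from 0.37 to 1.84 that reached below the 1.5-fold limit, with an adjusted p of 0.00427 in the exact binomial test. The difference was therefore larger than counting error for both receptors, and its size was loosely known for Pparg.

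Abca1 and Apoe, genes of cholesterol efflux, had the 2 largest changes by point value, though the intervals of Nr1h3, Cd36 and Msr1 overlapped theirs. Abca1, the transporter that loads cholesterol onto lipid-poor apolipoprotein A-I (chromosome 4, 53030787 to 53159895, minus strand), had 1259 reads in the control and 5460 in the cKO library. Its level of 1218 and 6209 gave a log2 change of 2.35 (2.26 to 2.44), a 5.09-fold difference. Apoe, the apolipoprotein that macrophages secrete to accept cholesterol (chromosome 7, 19696109 to 19699188, minus strand), had 1408 and 5376 reads. Its level of 1362 and 6113 gave a change of 2.17 (2.08 to 2.25), a 4.49-fold difference. Abcg1, which moves cholesterol to mature high-density lipoprotein (chromosome 17, 31057675 to 31117988, plus strand), had 2219 reads in the control and 3068 in the cKO library. Its level of 2147 and 3489 was a 1.62-fold difference, a change of 0.70 (0.62 to 0.78), and its interval did not overlap that of Abca1 or Apoe. The 2 efflux transporters thus differed in the size of the change. In reads per kilobase of exon per 1000000 reads Abca1 went from 6.0 to 28.7 and Abcg1 from 15.0 to 22.9, so that their order was the opposite in the cKO library. The exon length here joins all annotated exons of a gene, and their order in reads alone was the opposite as well.

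Uptake was split between receptors and lipase. Cd36, a receptor for oxidized lipoproteins and long-chain fatty acids (chromosome 5, 17781690 to 17888801, minus strand), had 138 reads in the control and 499 in the cKO library. Its level of 133 and 567 gave a log2 change of 2.08 (1.81 to 2.37). Msr1, the class A scavenger receptor (chromosome 8, 39581685 to 39642673, minus strand), had 92 and 310 reads. Its level of 89.0 and 353 gave a change of 1.97 (1.65 to 2.34), and the intervals of both receptors overlapped each other and that of Nr1h3. Lpl, the lipase that frees fatty acids from triglyceride-rich lipoproteins (chromosome 8, 68880491 to 68907448, plus strand), had 114 and 140 reads. Its level of 110.3 and 159 was a 1.44-fold difference, under the limit, and its change of 0.53 (0.16 to 0.90) excluded 0 by counting error (exact binomial test, adjusted p = 0.00740). Mylip, the ubiquitin ligase that LXR induces to remove the LDL receptor (chromosome 13, 45389742 to 45412022, plus strand), had 1678 and 2749 reads, a 1.93-fold difference with a change of 0.95 (0.86 to 1.03).

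Trem2 was the single lower gene. Per length of all annotated exons it was the lowest in both libraries by point value, its counting interval in the control overlapping those of Pparg, Lpl and Nr1h3. That length was 4946 bases for Trem2, and the rank with the length of a single transcript was not tested. By reads alone Nr1h3 (31) and Pparg (26) were below Trem2 in the control. Trem2 encodes a lipid-sensing receptor of macrophages (chromosome 17, 48346401 to 48354147, plus strand), and it had 34 reads in the control and 13 in the cKO library. Its level of 32.9 and 14.8 was 2.15-fold lower, a log2 change of -1.10 with an interval from -2.20 to -0.19 that reached inside the 1.5-fold limit, and the exact binomial test gave an adjusted p of 0.0251. Reads this few carry a further limit, because many genes at such depth were listed at 0 in the other library. This held in the cKO library for 610 of the 1224 genes counted 10 to 19 times in the control, and for 309 of the 1318 counted 20 to 49 times. In the other direction it held for 158 of 836 genes. The part of this in the value of Trem2, and in the genes given below with 0 reads in the cKO library, was not tested.

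**Figure D2:**
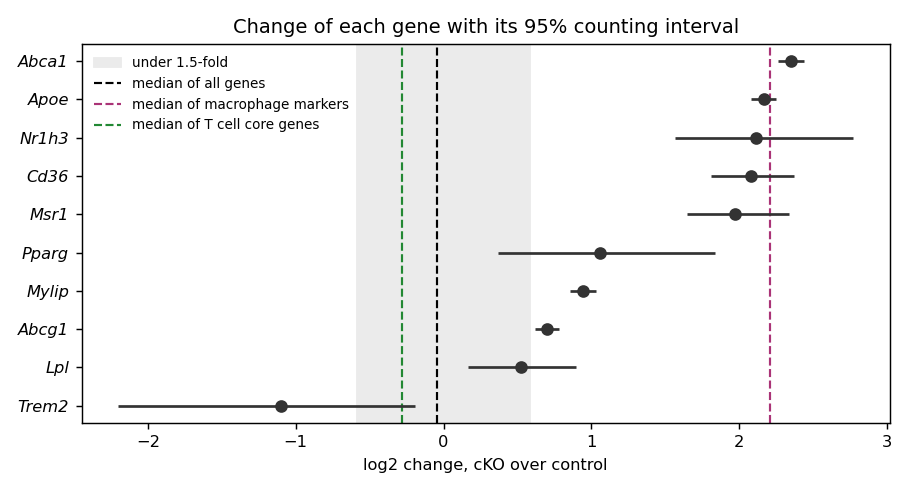
Log2 change (cKO over control, pseudocount of 1) of the 10 genes; points are the values, bars their 95% exact counting intervals, the grey band is under 1.5-fold, and dashed lines are the medians of all genes, of 18 macrophage markers and of 16 T cell core genes. Abca1, Apoe, Nr1h3, Cd36 and Msr1 lie near the macrophage marker median of 2.21, the other 5 genes lie more than 0.5 below it, and 9 of 10 intervals are above 0. The B cell marker median of 2.47 is not drawn.

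The levels fell in nearly the same order in both libraries when compared per length, in reads per kilobase of exon per 1000000 reads. The length was that of all annotated exons of a gene joined, and the order of genes within a library rests on it. In the control library Apoe (32.5) was followed by Mylip (25.6), Abcg1 (15.0), Abca1 (6.0) and Cd36 (1.90), and no neighbours among these overlapped in their counting intervals. From Msr1 (0.717) through Nr1h3 (0.609), Lpl (0.538), Pparg (0.435) and Trem2 (0.340) each gene overlapped the next. In the cKO library Apoe (137) and Mylip (46.4) were again first, Abca1 (28.7) preceded Abcg1 (22.9), and Cd36 stood at 7.58. Msr1 (2.67) and Nr1h3 (2.54) overlapped, as did Pparg (0.868) and Lpl (0.729), and Trem2 was last at 0.143. Of the 10 genes, 4 had at least 1000 reads in the control library and the other 6 had at most 138.

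Markers of other cell types were compared in the same libraries, since the 10 genes are known from macrophages and the cells were labelled Treg. Over all genes 17.2% were higher and 24.2% lower by the same rule. All 18 macrophage markers were higher in the cKO library, with a median log2 change of 2.21 and a range from 0.78 to 6.68, and their reads summed to 27888 and 50332. Lyz2, a lysozyme that granulocytes also express, had 21710 and 33118 of these reads, and Csf1r, the receptor of macrophage colony-stimulating factor, had 2197 and 4145. Timd4, named after its values were seen, was at 0 reads in the control and 89 in the cKO library. All 10 B cell markers were higher too, with a median of 2.47 and 8205 and 36535 reads. Pax5 had 1065 and 7778 of these reads, and Cd79a had 1012 and 4318. Of the 16 T cell core genes none was higher and 2 were lower, with a median of -0.28 and 79195 and 54450 reads. Cd4 had 8371 and 4658 of them, and Tcf7 had 15213 and 11607. Fewer cells of a type and less RNA per cell cannot be told apart in such bulk libraries, and the part of these markers in the values of the 10 genes was not tested.

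Set beside the macrophage markers, the 10 genes split into 5 within 0.5 of the marker median and 5 more than 0.5 below it. Such nearness was not particular to macrophage markers. The B cell markers had a median of 2.47 and ranged from 1.11 to 3.10, a range that held Apoe, Abca1, Nr1h3, Cd36 and Msr1. Relative to the macrophage median, the log2 change of Apoe stood at -0.04. Abca1 stood at 0.14, Nr1h3 at -0.10, Cd36 at -0.13 and Msr1 at -0.24. Pparg was at -1.15, Mylip at -1.26, Abcg1 at -1.51, Lpl at -1.68 and Trem2 at -3.31, and Abcg1, Lpl and Trem2 were below the lowest of the 18 markers. Per 1000 reads of macrophage markers other than Lyz2, Apoe had 228 reads in the control and 312 in the cKO library, and Abca1 had 204 and 317. By the same measure Abcg1 had 359 and 178, Mylip 272 and 160, and Lpl 18.5 and 8.13. With Lyz2 included, Apoe had 50.5 and 107 and Abca1 45.1 and 108, and Abcg1 had 79.6 and 61.0, Mylip 60.2 and 54.6 and Lpl 4.09 and 2.78. The size of these ratios thus depended on that 1 gene, their direction did not, and with Lyz2 included little difference was left for Mylip. Pparg differed from these genes in that its direction did depend on Lyz2. It had 4.21 and 2.73 without Lyz2, but 0.932 and 0.934 with it, which is no fall. Whether the reads of Abcg1 and Mylip came from T cells, macrophages or B cells cannot be told apart in these libraries.

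**Figure D3:**
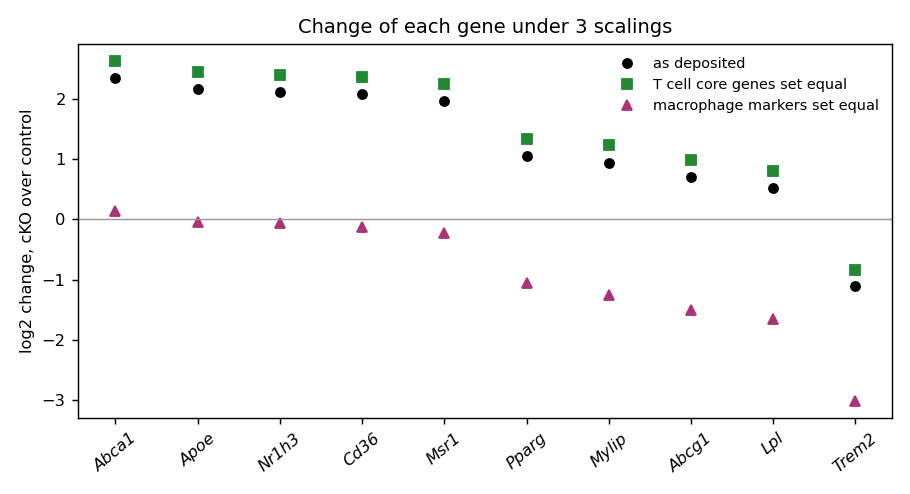
Log2 change of the 10 genes (cKO over control) with the levels as deposited, with the median of the 16 T cell core genes brought to 0, and with that of the 18 macrophage markers brought to 0. The median over the 10 genes is 1.52, 1.80 and -0.64 in that order, and under the last scaling Abca1 is the 1 gene above 0. The median of all genes is -0.04, 0.24 and -2.22 in the same order.

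The remaining marker lists differed in direction. Their counts stand against 17.2% higher and 24.2% lower over all genes. Of 8 monocyte markers 5 were higher, with a median of 0.86 and 21310 and 29371 reads. Of 8 dendritic cell markers 1 was higher and none lower (median 0.10), and of 8 Treg markers 2 were higher and none lower (median 0.10). Of 10 granulocyte markers 3 were higher and 1 lower (median 0.45), with 239971 and 278168 reads, of which S100a9 had 76931 and 89733. Of 8 erythroid markers 7 were lower (median -1.23), with 30394 and 10884 reads. Of 8 platelet markers 4 were higher and 1 lower (median 0.68), with 748 and 846 reads. Of the 7 endothelial markers past the minimum level 1 was higher and 4 lower (median -1.01), and Emcn was at 0 in both libraries. The adipocyte list, which matters for Lpl, Pparg and Cd36, had 50 and 106 reads over its 8 genes, with Adipoq, Plin1, Cidea and Cidec at 0 in both libraries. Of its 4 genes past the minimum level 3 were higher and 1 lower (median 1.21), and the higher ones included Retn, with 4 and 42 reads (3.32), and Fabp4, with 17 and 42 (1.48).

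Genes that work with LXRα were mostly within 1.5-fold. Of 10 receptors, partners and corepressors, 2 were higher and 2 lower, close to the 17.2% and 24.2% of all genes, and their median was 0.10. Nr1h2, which encodes the widely expressed LXRβ, had 1519 and 1461 reads and a log2 change of 0.18 (0.07 to 0.28). The retinoid X receptor gene Rxra had 348 and 476 reads (change 0.68), Rxrb had 1467 and 1274 (change 0.03), and Rxrg had 4 and 0. The coactivator gene Ncoa1 was the other higher gene, with 2167 and 2916 reads (change 0.66), and Ep300 had 10451 and 11383 (change 0.36). The corepressor gene Ncor1 had 18605 and 15685 reads (change -0.01). Nrip1 had 3215 and 2633 reads (change -0.05). Nr0b2, a repressor without a DNA-binding domain, had 16 reads in the control and 0 in the cKO library, at least 4.54-fold lower against a floor of 3 reads, by counting error alone.

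Other LXR targets lay on both sides. Of the 22 past the minimum level, 7 were higher and 4 lower, against 17.2% and 24.2% of all genes, and the median was -0.07. Cd5l, a secreted protein of tissue macrophages, had 26 and 479 reads, a log2 change of 4.38 (3.87 to 5.07). Mertk, a receptor for dying cells, had 35 and 357 reads, a change of 3.55 (3.08 to 4.13). Scd1, the stearoyl-CoA desaturase, had 1449 and 7264 reads, a change of 2.56 (2.48 to 2.64). The fatty acid synthase gene Fasn had 5316 and 3797 reads, a change of -0.25 (-0.31 to -0.19). Arl4c, with the most reads of the list beside Fasn, had 5462 and 4326, a change of -0.10. Named after their values were seen, Pltp and Apoc2, which act on lipoproteins, were higher at 1.41 and 1.30, Fads1 and Fads2, desaturases of polyunsaturated fatty acids, were lower at -1.10 and -1.11, and Abcg4, a transporter related to Abcg1, was lower at -1.31. Of the 11 targets within 1.5-fold, Srebf1 had 1936 and 1558 reads (-0.08). Lpcat3 (-0.06), Abca7 (0.07) and Smpdl3a (0.38) were within it as well. These too were named after their values were seen. Apoc4 was at 0 in both libraries. Of the 16 targets with a promoter window, 3 held the LXR repeat with at most 3 mismatches (Srebf1, Fasn and Arl4c), against 24.5% of all genes with a window. None held it with at most 2, against 3.47%.

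**Figure D4:**
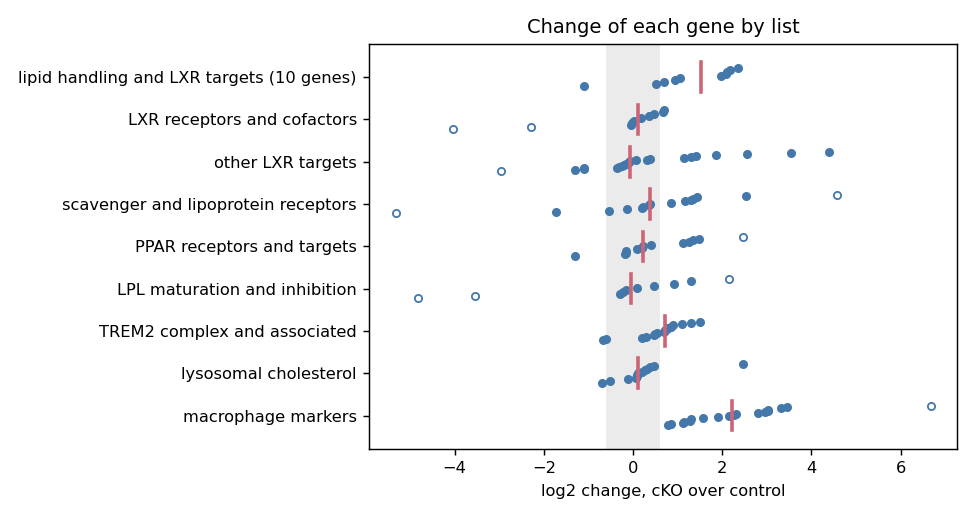
Log2 change (cKO over control) of each gene past the minimum level, by list; filled points have reads in both libraries, open points are at 0 reads in 1 library, red bars are list medians and the grey band is under 1.5-fold. The 10 genes have a median of 1.52 and the macrophage markers of 2.21, and the 7 pathway lists have medians from -0.07 to 0.71.

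The scavenger and lipoprotein receptors lay on both sides as well. Of 15 such genes 7 were higher and 2 lower, against 17.2% and 24.2% of all genes, with a median of 0.38. Lrp1, an endocytic receptor that binds apolipoprotein E, had 3188 and 7310 reads (log2 change 1.43), and Sorl1, a sorting receptor, had 9721 and 20875 (1.34). Scarb2, a lysosomal receptor, had 2302 and 2266 reads (0.21). Marco, a scavenger receptor of marginal zone macrophages, had 0 reads in the control and 20 in the cKO library, at least 7.84-fold higher, and the lipoprotein receptor gene Vldlr had 40 and 0, at least 11.3-fold lower by counting error alone. Of the 13 PPAR receptors and targets past the minimum level 5 were higher and 1 lower, against the same shares (median 0.22). Pdk4, named after its values were seen, was 1 of the higher genes, with 0 and 4 reads. Cpt1a, which brings fatty acids into mitochondria, had 1543 and 2876 reads (1.13). Ppara had 18 and 40 reads (1.34) and Fabp4, a fatty acid carrier, 17 and 42 (1.48). Ucp2, with 12267 and 13711 reads (0.39), and Hadha, an enzyme of fatty acid oxidation with 3733 and 2810 (-0.18), were under the limit, and Cidec was at 0 in both libraries.

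Of the 10 genes of LPL maturation, anchoring and inhibition past the minimum level, 3 were higher and 2 lower, with a median of -0.04. Over all genes the shares were 17.2% and 24.2%. Apoc3, named after its values were seen, was 1 of the 3 higher genes, with 0 and 3 reads, at the floor. Under a minimum mean of 10 the list had 2 higher and 1 lower, against 15.4% and 14.9% of all genes. Sel1l, needed for LPL to leave the endoplasmic reticulum, had 5723 and 4189 reads (log2 change -0.22), Lipa, the lysosomal lipase, 1257 and 1132 (0.08), and Pnpla2, the lipase of lipid droplets, 1221 and 1956 (0.91). Apoa5 had 28 reads in the control and 0 in the cKO library, at least 7.94-fold lower, and Angptl8 had 11 and 0, at least 3.12-fold lower, both by counting error alone, and Gpihbp1, the endothelial anchor of LPL, was at 0 in both.

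Of 16 genes of the TREM2 complex, its signalling, related receptors and lipid-associated macrophages, 9 were higher and 2 lower, against 17.2% and 24.2% of all genes, with a median of 0.71. Syk, the kinase downstream of its adaptor, had 5385 and 11280 reads (log2 change 1.30), and the related receptor gene Treml4 had 165 and 401 (1.51). Trem2 itself had 34 and 13 reads, and the B cell markers had 8205 and 36535. Which cells gave the reads of these 16 genes was not tested. The cathepsin genes Ctsd, with 5794 and 5656 reads, and Ctsb, with 5164 and 6203, were at 0.20 and 0.50. Named after their values were seen, Tyrobp, which encodes the adaptor of TREM2, had 2081 and 2881 reads (0.70), and the 2 lower genes were Gpnmb, with 121 and 64 reads (-0.68, interval -1.15 to -0.24), and Spp1, with 531 and 295 (-0.61, interval -0.82 to -0.41). Of the 13 genes of lysosomal cholesterol release and esterification past the minimum level 1 was higher and 1 lower, against the same shares (median 0.12). The higher gene was Cyp27a1, which makes the LXR ligand 27-hydroxycholesterol, with 75 and 359 reads (2.48, interval 2.13 to 2.87), and the lower was the sterol carrier gene Stard4, with 1098 and 572 (-0.71). Gramd1a (0.12), Osbp (-0.12) and Npc2 (0.06), with the most reads of this list, were under the limit. The medians of these lists did not move when genes at 0 in 1 library were set at their bound.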

How the data were processed

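RNA-seq was performed on 1 library of each genotype. The authors extracted RNA with TRIzol, selected mRNA with beads and aligned the reads with TopHat to mm10 (GRCm38); the submitters' processing notes also list bcl2fastq 2.0, STAR, StringTie and DESeq2 without roles, and the counting tool, its strand setting and the annotation are not given in the sources used here. The values the authors deposited are a signal, namely reads divided by 1 size factor per library, and 100% of them were whole multiples of 1 read within 0.01 read. Each size factor scales all genes of its library alike, so another scaling shifts every change by about the same amount. The floor was 3 reads, or 0.148 per 1000000 reads in the control and 0.164 in the cKO library.

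Changes used a pseudocount of 1, a minimum mean of 1 and a fold of 1.5, the fold in the study's methods. Intervals were exact Clopper-Pearson intervals at 95%. The exact binomial test covered genes whose reads summed to 10 or more, the ratio of the deposited size factors as its null, Benjamini-Hochberg adjustment, and an adjusted p under 0.1 with the fold of 1.5; it was run because whole reads could be recovered. By symbol, 20516 of the 20938 genes were found in GENCODE vM21.

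The 10 genes and all lists were chosen with earlier results of these data known. Named are the 10 genes, every LXR receptor and cofactor, in each other pathway list the 3 genes with the most reads and the 2 with the largest change among those with at least 10 reads, in each marker list the 2 with the most reads and any at 0 in both libraries, and Mettl14 and Foxp3; marker genes other than those a result turns on are given by their lists. Some genes that this rule names are not reported here. Alternatives were other pseudocounts, minimum levels, scalings and folds, and an assumed coefficient of variation in the exact test of edgeR. The exact binomial test and its interval were tested on simulated reads with counting error only. Such reads could not show how both hold under spread between libraries, or with the many genes listed at 0 in 1 library. The tools were edgeR 4.0.16 in R 4.3.3, and in Python 3.11.15 the packages pandas 2.3.3 for tables, scipy 1.17.1 for intervals and tests, matplotlib 3.10.9 for plots and numpy 2.4.6.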

Additional observations from a re-analysis of the deposited data

How the results depend on the processing

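No paired analysis was possible because only 1 library per genotype was made, and for the same reason no replicate could be left out. The direction of all 10 genes was the same with pseudocounts of 0.1 and 5, without a minimum, with library totals, TMM or median-of-ratios scaling and with a scaling that equalized T cell core genes. Under that scaling 4546 genes (27.3%) were higher, against 2864 (17.2%) as deposited, and 58.3% of changed genes were higher, against 41.6%. The median of all genes was 0.24, and Lpl passed 1.5-fold, so that 9 of the 10 were higher. With macrophage markers set equal the median of all genes was -2.22, and 350 genes (2.16%) were higher and 15465 (95.3%) lower. None of the 10 genes was higher and 5 were lower, and their median was -0.64. In the pathway lists 3 genes were higher and 86 lower, against 33 and 14 as deposited. Under this scaling Apoe was at -0.043, Abcg1 at -1.51, Nr1h3 at -0.058, Pparg at -1.06, Cd36 at -0.12, Msr1 at -0.22 and Mylip at -1.26. This follows from the scaling, which takes the marker median from every gene. Without Lyz2, a choice made after seeing the data, 0 of the 10 genes were higher, 5 were lower and their median was -0.69. Over all genes 2.13% were then higher and 95.6% lower, with a median of -2.27. A minimum mean of 10 gave 2035 lower genes, 9 of them in the pathway lists, a fold of 2 gave 1722 higher genes, and genes above 0 in both libraries gave 2182 higher and 1904 lower, 15.8% and 13.7% of those tested. The edgeR exact test with an assumed coefficient of 0.2 called 931 genes higher and 1488 lower, and of the 10 genes 5 higher (Apoe, Abca1, Nr1h3, Cd36 and Msr1) and 0 lower. With 0.4 it called 229 and 569, and 0 and 0 of the 10 genes, with adjusted p from 0.125 to 0.256 for those 5 genes. The spread between animals is unknown, so which coefficient applies was not tested.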
